A study of Phyllotreta striolata with 15 samples.

Results

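Genes of moderate level whose transcript share stayed nearly level through the life cycle were examined as candidate reference genes. The animal was Phyllotreta striolata, known as the striped flea beetle and a pest of cabbage and its relatives. The members were chosen from the authors' deposited group means in TPM (a share of a library's transcripts, corrected for gene length). Genes with a mean of the 5 group values from 20 to 200 TPM were kept, and of these 6555 genes the 200 with the lowest standard deviation (SD) of log2(TPM + 1) over the 5 groups were taken. They make up 3.05% of the genes in that range and 1.69% of the 11862 genes measured. The samples were whole bodies of eggs, larvae, pupae, female adults and male adults, with 3 libraries per group. The labels name no strain, treatment, age or host plant, and the design text calls the replicates biological without saying whether they came from separate collections. The choice used these same libraries, so a small difference between group means is what made a gene a member and not a result. The rule did not use the spread between replicates of a group directly. Each group mean averages 3 libraries, however, so the choice can favour genes with close replicates. The count scalings described below were not used by the rule.

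A reference gene is a gene against which the level of other genes is expressed, most often in quantitative PCR. It is useful to the degree that its own transcript level is the same in every sample compared. Genes for protein synthesis, the cytoskeleton and energy metabolism are the usual candidates in insects. Beetles pass through complete metamorphosis, in which larval tissues are broken down and adult tissues built in the pupa, so a gene that holds its level across these stages has to do so across very different mixtures of tissues. Any level also depends on the scale on which libraries are compared, because sequencing yields shares of a total and not amounts per animal. In whole bodies, fewer cells of a type and less RNA per cell cannot be told apart.

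The files give genes by identifier only and do not pair identifiers with names. No function is therefore given to any gene here, and near-identical copies that could share reads cannot be recognised. Of the 200 identifiers, 185 begin with CAG and 15 with CAH, and no member is among the 1129 genes in the authors' lists of stage- and sex-specific genes. Library totals ran from 16509113 to 32598781 counts, of which the members together held 1.72% (pupa replicate 1) to 2.22% (egg replicate 2). Every member had at least 45 counts in every library, so none was near the detection limit. Library names begin with 1 of 3 letter codes whose meaning is not given: eggs have their own, pupae have another, and larvae share theirs with both adult groups. Whatever the codes stand for cannot be told apart from stage, except among larvae, female adults and male adults.

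On the scale that chose them, the members had an SD of 0.0833 to 0.362 (log2 TPM, 5 group means), with a median of 0.302. The highest group mean was 1.16 to 1.995 times the lowest, with a median of 1.67. For all genes of the same range the medians were an SD of 1.03 and a ratio of 5.66. The group mean was highest in female adults for 76 members, in eggs for 48, in pupae for 39, in larvae for 23 and in male adults for 14. It was lowest in larvae for 70 members, in male adults for 43, in eggs for 41, in pupae for 41 and in female adults for 5. The median member was at 56.2 TPM in eggs, 50.9 TPM in larvae, 54.7 TPM in pupae, 64.7 TPM in female adults and 52.7 TPM in male adults. The limit fell in a dense part of the distribution. CAG9860390.1 and CAG9855465.1 lay just inside at SDs of 0.362 and 0.362, and CAG9861462.1 and CAG9857312.1 just outside at 0.363 and 0.363. The members' mean TPM ran from 20.4 for CAG9864341.1 to 196 for CAG9860358.1, with a median of 56.7.

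The spread over the 15 libraries was somewhat wider than the spread between group means on the same scale. The spread over libraries was measured on CPM, counts scaled to a fixed total per library, after TMM scaling. TMM is a method that sets library sizes so that most genes do not differ. The spread is given as the SD of log2(CPM + 1). The median over members was 0.397, with a range from 0.141 to 1.05, against a median of 0.881 for all genes of the range and 0.949 for the 11440 genes tested. On this scale the members' SD between group means had a median of 0.362. The TPM means that chose the members are on another scale, so their SD cannot be set directly against 0.397. Over the 15 libraries the highest value of a member was a median of 2.53 times its lowest. It was under 2 times for 37 members, under 3 times for 136 and under 4 times for 173. Among all genes tested, 1.29% stayed within 2-fold and 8.95% within 3-fold. The coefficient of variation of the members ran from 9.92% to 66.3%, with a median of 28.3%. These figures are for TMM. With DESeq2 size factors, another scaling, 20 members stayed within 2-fold, with library size alone 60, and on TPM rebuilt per library 40. In the same order 112, 175 and 169 stayed within 3-fold, and the median SDs were 0.438, 0.324 and 0.358. The median SDs between the members' group means were 0.405, 0.270 and 0.304. The median SDs over the libraries of all genes of the range were 0.860, 0.965 and 1.01. Shares of all genes within 2-fold or 3-fold are not given for these scalings.

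CAG9859375.1 was the most even member by this measure and also had the lowest SD of all genes tested. It was at 74.1, 66.9 and 74.5 CPM in eggs, 83.4, 73.0 and 73.4 CPM in larvae and 63.5, 68.0 and 73.2 CPM in pupae. In female adults it was at 64.4, 81.9 and 58.5 CPM, and in male adults at 63.3, 72.4 and 65.0 CPM. All groups overlapped one another except larvae and male adults, and the highest library was 1.42 times the lowest. CAG9861304.1 was next, with an SD of 0.145. It was at 42.2, 49.7 and 48.3 CPM in eggs, 53.3, 57.4 and 55.9 CPM in larvae, 49.96, 54.1 and 51.7 CPM in pupae, 51.2, 62.4 and 47.0 CPM in female adults and 45.9, 44.5 and 48.0 CPM in male adults. The lowest value fell in an egg library and the highest in a female library, 1.48-fold apart. CAG9855595.1 had an SD of 0.160 and the smallest spread between replicates of all members, 0.0959 pooled over the groups. Its pupal libraries were the lowest, at 39.5, 42.9 and 37.7 CPM, and its highest library was an egg library at 55.9 CPM.

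The next members in order were CAG9864763.1 (SD 0.189), CAG9865108.1 (SD 0.192), CAG9864423.1 (SD 0.195), CAG9855763.1 (SD 0.207) and CAG9857476.1 (SD 0.213). Their highest library was 1.54 to 1.65 times the lowest. They span a wide range of level: in the authors' table their mean was 112 TPM for CAG9864763.1, 97.8 TPM for CAG9855763.1 and 28.4 TPM for CAG9857476.1. All of the 8 lowest members by this SD had their lowest TPM mean in larvae and their highest in female adults. For CAG9859375.1 the authors' means were 85.7 TPM in eggs, 55.8 TPM in larvae, 69.8 TPM in pupae, 103 TPM in female adults and 69.8 TPM in male adults. The genes flattest over the libraries in TMM-scaled counts were thus not those flattest in the TPM group means. The 20 lowest members by each measure had 0 genes in common. The 20 members with the closest replicates also shared 0 genes with the 20 lowest in TPM. The measures differ in scale and in averaging, and the part of each in this was not tested.

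The reverse was seen for CAG9854790.1, the gene with the lowest SD in TPM, which is singled out here after its values were seen. Its group means were 29.6 to 34.3 TPM. In TMM-scaled counts it was at 94.6, 102 and 72.3 CPM in eggs, 175, 165 and 70.1 CPM in larvae and 90.7, 101 and 92.7 CPM in pupae. It was at 71.1, 58.8 and 57.3 CPM in female adults and at 105, 86.9 and 94.2 CPM in male adults. Larva replicates 1 and 2 were the highest of all libraries, larva replicate 3 lay with the lowest, and the member ranked 130 of 200 by SD over libraries.

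**Figure D1:**
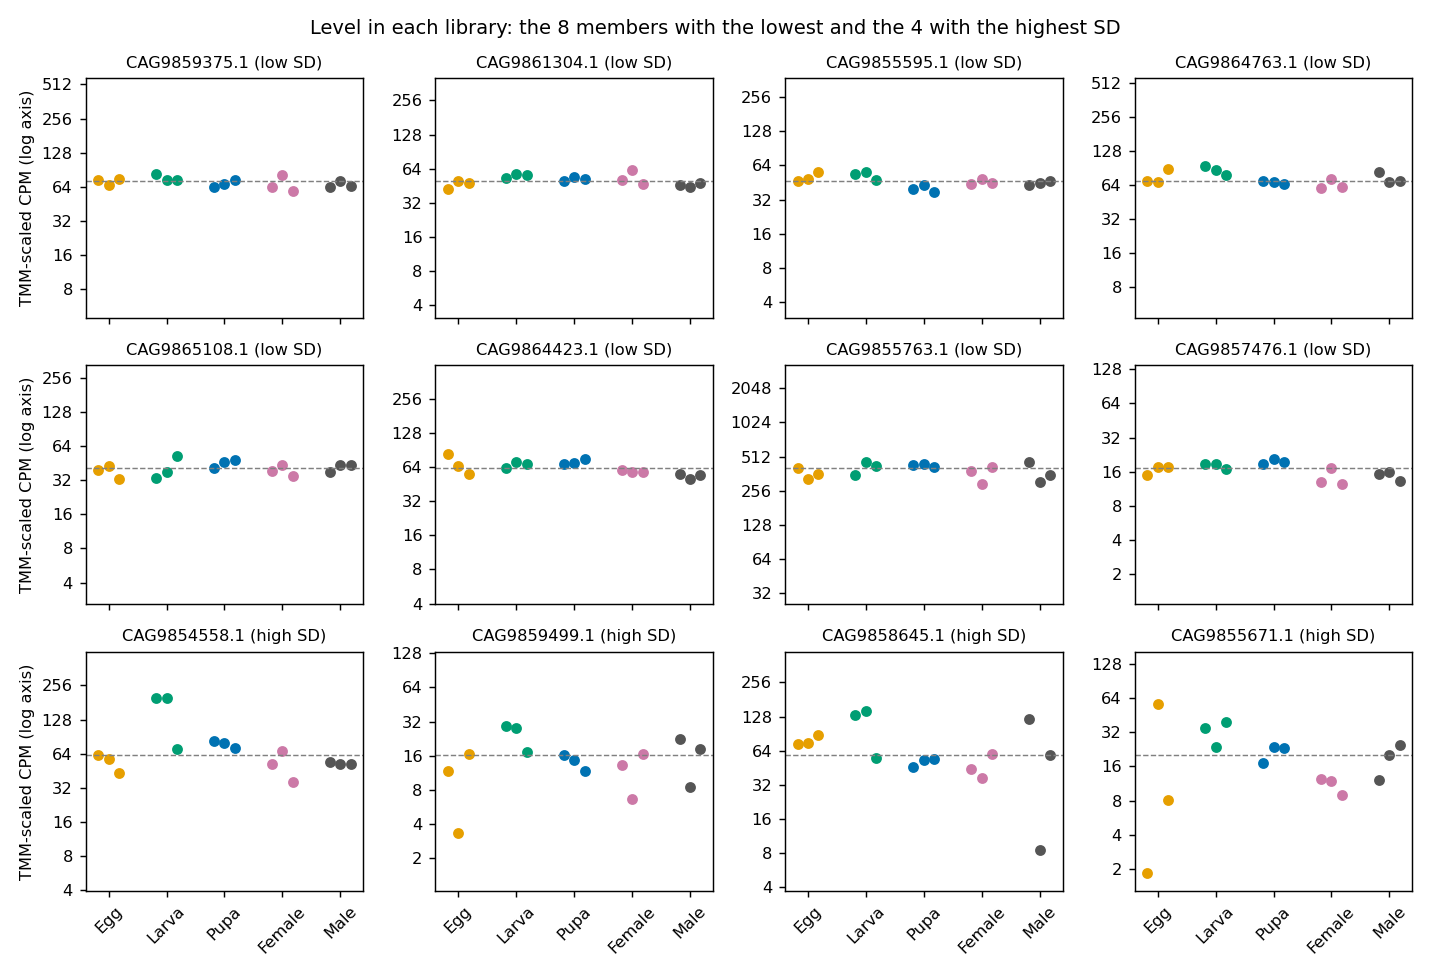
TMM-scaled CPM (log axis) in each of the 15 libraries for the 8 members with the lowest and the 4 with the highest SD of log2(CPM + 1). Points are single libraries, set side by side within a group, and the dashed line is the median of the 15. The 8 low-SD genes stay within 1.65-fold, and in the other genes single libraries stand far from their own replicates.

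The 4 members with the highest SD all had replicates of at least 1 group far apart, which a group mean does not show. CAG9855671.1 had the highest SD, 1.05, and a 30.8-fold range. Its pupal libraries were at 17.3, 23.5 and 23.0 CPM. Its egg libraries were at 1.85, 56.9 and 8.02 CPM, the lowest and the highest of all 15 among them. The authors' means for this gene were 34.4 TPM in eggs, 27.4 TPM in larvae, 24.5 TPM in pupae, 18.7 TPM in female adults and 22.4 TPM in male adults. CAG9858645.1 had an SD of 0.941 and a 16.9-fold range. Its male libraries were at 123, 8.54 and 59.2 CPM, and male adult replicate 2 was the lowest of all libraries. CAG9859499.1 had an SD of 0.729, and its egg libraries were at 11.8, 3.31 and 16.5 CPM.

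CAG9854558.1 had an SD of 0.687. It was at 199, 197 and 70.1 CPM in larvae, and every library of the other groups lay between 36.3 and 82.9 CPM, so that larva replicates 1 and 2 stood apart and larva replicate 3 lay among the other groups. CAG9855200.1 had a within-group SD of 0.599, and larva replicate 2 was at 328 CPM against 128 and 85.4 CPM in larva replicates 1 and 3. Its highest value thus came from a single library.

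The spread between replicates was not used directly by the rule. Each group mean averages 3 libraries, however, so choosing even means can favour genes with close replicates. The pooled within-group SD of the members had a median of 0.226 and ran from 0.0959 to 1.03. The median was 0.330 for all genes of 20 to 200 TPM and 0.364 for all genes tested, and 155 of the 200 members (77.5%) lay under the median of the range. The biological coefficient of variation that edgeR fitted had medians of 0.218 for the members, 0.279 for the range and 0.341 for all genes tested. These are descriptions of one set of libraries and were not tested, and part of the difference may follow from the choice. Within groups the members were most even in pupae, with a median SD of 0.0984, followed by male adults at 0.171, female adults at 0.174, eggs at 0.223 and larvae at 0.282. Replicates differed by 2-fold or more in larvae for 28 members (14%), in eggs for 14, in male adults for 11, in female adults for 3 and in pupae for 1. The same was true in eggs for 47.9%, in larvae for 43.8%, in female adults for 33.7%, in male adults for 23.2% and in pupae for 19.5% of all genes tested. Larvae came first among the members and eggs first among all genes.

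After CAG9855595.1, the members with the closest replicates were CAH1168197.1, CAG9863486.1 and CAG9856451.1, with within-group SDs of 0.103, 0.108 and 0.108. Of the 20 members with the closest replicates, 6 were among the 20 with the lowest SD between group means, CAG9855595.1 included. Others had groups that differed. CAG9856451.1 was at 231, 215 and 184 CPM in eggs, 214, 226 and 195 CPM in larvae and 203, 234 and 240 CPM in pupae. It was at 115, 109 and 115 CPM in female adults and 171, 164 and 172 CPM in male adults, so that females lay below every other library. CAH1168197.1 was at 45.1, 45.8 and 43.5 CPM in female adults, below every other library, and at 89.0, 88.5 and 77.2 CPM in pupae, above every other library. For 40 members the spread within groups exceeded the spread between group means.

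**Figure D2:**
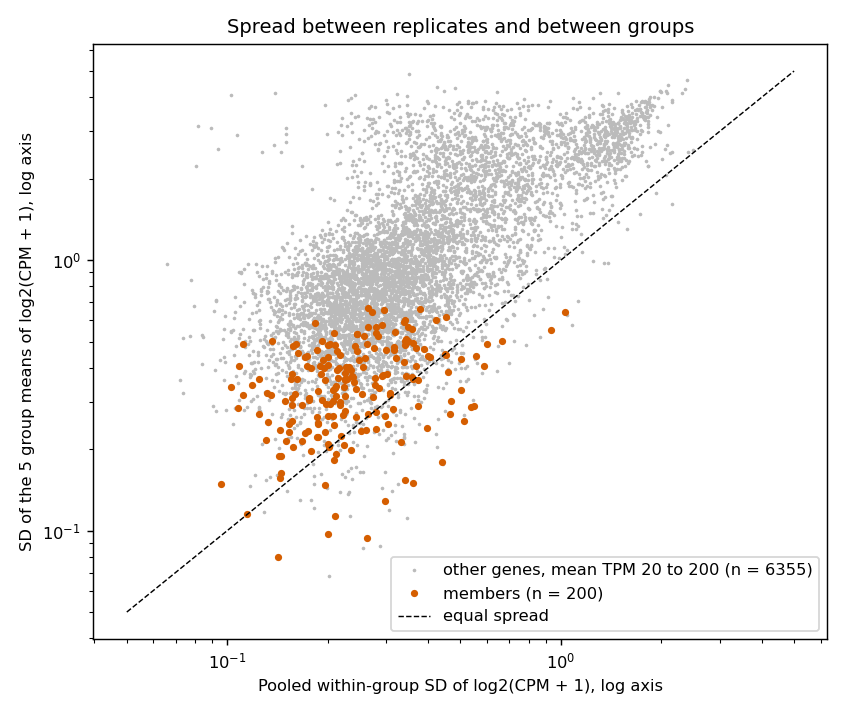
Pooled within-group SD (x, log axis) against the SD of the 5 group means (y, log axis) of log2(CPM + 1) after TMM scaling, for the 200 members and the other genes with a mean of 20 to 200 TPM. Each point is a gene and the dashed line marks equal spread. Members sit low on the y axis, as their choice requires, and spread on the x axis from 0.0959 to 1.03.

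Larva replicate 3 was the furthest of the larval libraries. With TMM, 20 members (10%) differed 2-fold or more between it and the mean of the other larvae, 5 higher and 15 lower, against 19.9% of all genes tested. For larva replicate 1 these were 4 members (2%) and 18.6% of all genes, and for larva replicate 2, 2 members (1%) and 13.4%. The median member lay 0.32 (log2) below the other larvae in larva replicate 3 with TMM and 0.07 above them with library size alone. Without larva replicate 3 the median within-group SD of the members was 0.203, the lowest with any single library left out, against 0.226 with all. It was 0.220 without larva replicate 1 and 0.228 without larva replicate 2. The median SD over the libraries was 0.380, 0.378 and 0.400 without larva replicates 1, 2 and 3 in turn, against 0.397 with all.

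A measure that needs no scaling of libraries gave another order. In geNorm, a procedure for ranking reference genes, M is the mean SD of a gene's log2 ratios with all other candidates, and a shift common to all genes of a library cancels out. M had a median of 0.450 among the members and ran from 0.347 to 1.02. Computed in the same way among all genes of 20 to 200 TPM, the median was 1.52. Each member was compared only with other genes chosen as even, so this difference follows in part from the choice. The lowest M belonged to CAG9865279.1 (0.347), CAG9865337.1 (0.359), CAG9864763.1 (0.374) and CAG9864352.1 (0.376). The highest belonged to CAG9855671.1 (1.02) and CAG9858645.1 (0.908), which were also the highest in SD over the libraries.

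CAG9865279.1 was at 67.2, 61.8 and 66.1 CPM in eggs, 89.8, 98.5 and 70.7 CPM in larvae and 60.8, 63.4 and 64.5 CPM in pupae. It was at 57.6, 53.0 and 47.8 CPM in female adults and 71.9, 55.5 and 65.9 CPM in male adults. Larvae were thus its highest group and female adults its lowest in TMM-scaled counts, without overlap between larvae and any other group except male adults. CAG9865337.1 showed the same order at a lower level, with 20.1, 23.5 and 21.1 CPM in female adults and 38.3, 38.7 and 34.6 CPM in larvae. A low M says only that a gene moved with the other members. The 20 lowest members by M shared 7 genes with the 20 lowest by SD in TPM and 5 with the 20 lowest by SD in TMM-scaled counts. CAG9864763.1 was the only gene among those with the 4 lowest M that was also among the 8 with the lowest SD.

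**Figure D3:**
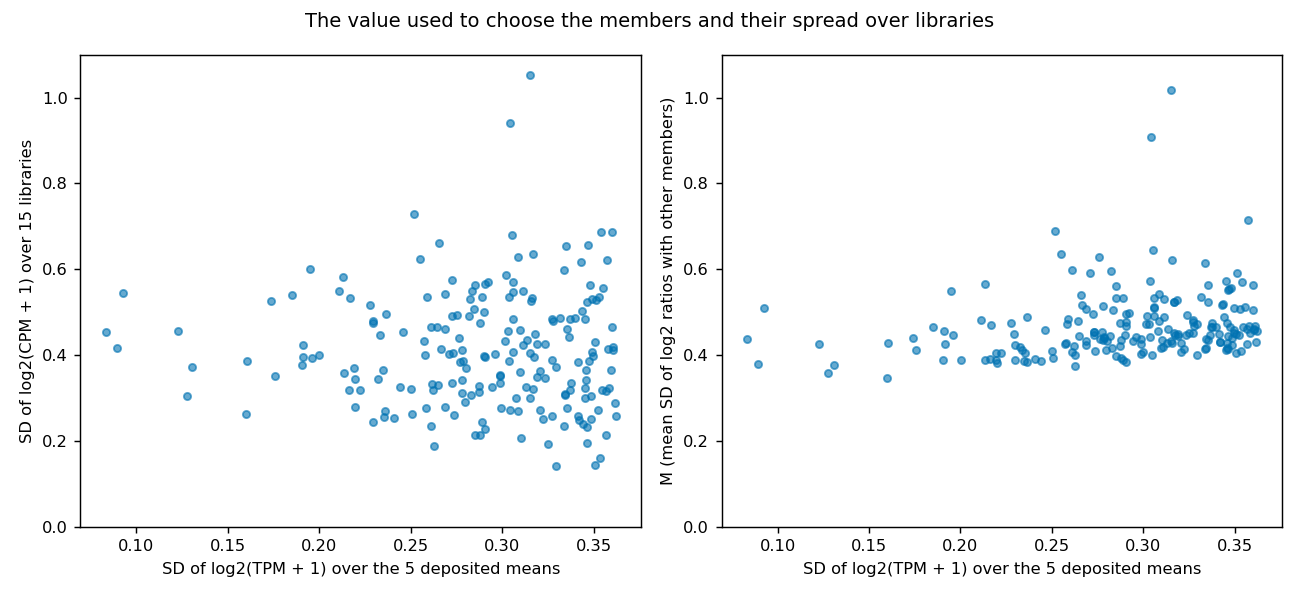
The SD of log2(TPM + 1) over the 5 deposited group means, which chose the members (x), against the SD of log2(CPM + 1) over the 15 libraries after TMM scaling (left) and against M (right, SD of log2 ratios). Each point is a member. The libraries' SD ranges from 0.141 to 1.05 and its 8 lowest values belong to genes ranked 52 to 185 of 200 on the x axis.

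A member's furthest library from its own mean was larva replicate 1 for 50 members and larva replicate 2 for 47, above the mean in every case, and female adult replicate 3 for 22, below it in every case. The members moved together from library to library, and how they moved depended on the scaling. With TMM, the median member deviated from its own mean by 0.47, 0.48 and 0.24 (log2) in the larval libraries and by -0.21, -0.24 and -0.37 in the female libraries. In larva replicate 2, 185 of 200 members lay above their mean, against 4458 of the 11440 genes tested, whose median was -0.27. In female adult replicate 3, 184 members lay below, against 6174 of all genes, whose median was -0.07. Male adults were at 0.01, -0.14 and -0.01. With the size factors of DESeq2 the pattern was wider, with larvae at 0.50, 0.64 and 0.41 and eggs at -0.20, -0.31 and -0.29.

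With library size alone the larvae were at -0.05, 0.04 and 0.15 and the female adults at 0.15, 0.10 and -0.05. Values on the TPM scale were also rebuilt for each library from the counts and the deposited group means. On these the order was reversed, with larvae at -0.31, -0.13 and -0.02 and female adults at 0.31, 0.20 and 0.15. The median of all genes lay further out on this scale, at -0.68, -0.79 and -0.48 in larvae and 0.43, 0.35 and 0.41 in female adults. The members in larvae thus stood above the median gene here, as under the other scalings. A scaling moves all genes of a library nearly alike, so the scalings are not separate tests of this difference. Members were chosen as even in TPM, so the difference also follows in part from the choice. The geometric mean of all 200 members differed 1.86-fold between the highest and the lowest library with TMM, 2.11-fold with DESeq2 size factors, 1.32-fold with library size alone and 1.47-fold on the rebuilt TPM scale.

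**Figure D4:**
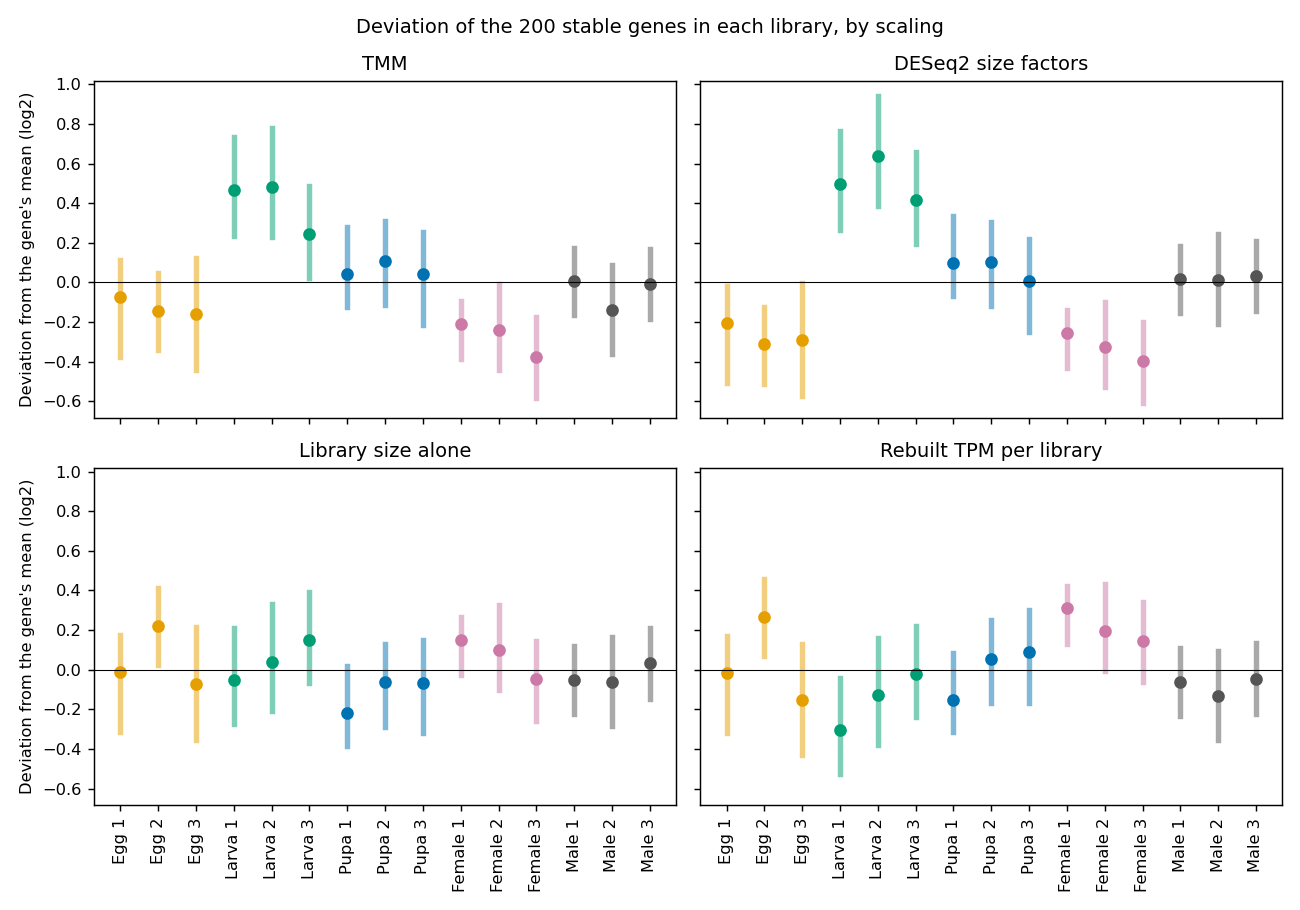
Deviation of the 200 members from each gene's own mean over the 15 libraries (y, log2) in each library (x), under 4 scalings. Points are medians and bars run from the lower to the upper quartile over members. Larvae lie above 0 and female adults below 0 with TMM and DESeq2 size factors, and on the other side of 0 on the rebuilt TPM scale.

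Each pair of groups was tested across all genes with edgeR's quasi-likelihood test on TMM-scaled counts, to see which members would still count as changed. A gene was called at an adjusted p under 0.05 and at least 2-fold. Since the rule used the same group means, these counts only describe what choosing on TPM leaves in the counts. Of the members, 68 were called in at least 1 of the 10 pairs, against 90.6% of all genes tested. With library size alone 13 members were called, against 92.4% of all genes, and with DESeq2 size factors 102, against 89.9%. DESeq2's own tests called 103, against 89.4%, and edgeR with no minimum fold 172, against 95.7%. Of the members' 132 calls with TMM, 114 (86.4%) were in the 4 pairs that include larvae and 18 in the 6 others, against 36.4% of the calls of all genes in the pairs with larvae. In pairs with larvae and no other pair, 52 members (26.0%) were called, against 5.52% of all genes. Over the 5 groups together, with no minimum fold, 145 members were called, against 91.9% of all genes, and 96 with library size alone, against 91.5%. DESeq2's likelihood ratio test called 177, against 93.0%.

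Larvae and eggs differed in 38 members, all higher in larvae. Of all genes tested 59.2% were called, 31.9% as higher in larvae. With library size alone 2 members were called, against 62.9% of all genes in either direction, and with DESeq2 size factors 73, against 57.8%. DESeq2's Wald test called 74, against 59.3%, and edgeR with no minimum fold 100, against 68.4%. In 98 members (49%) all larval libraries lay above all egg libraries in TMM-scaled counts, against 28.9% of all genes tested. Without larva replicate 2 the 38 became 25, against 58.5% of all genes tested. The median log2 change of the members was 0.50 with TMM and that of all genes 0.02. With library size alone these were -0.04 and -0.49, so the members stood 0.48 and 0.45 above the median gene under the 2 scalings. A scaling moves members and other genes nearly alike, so the closeness of these 2 values is not a separate result. CAG9864470.1 had the highest change, at 71.9, 67.3 and 32.8 CPM in larvae and 18.7, 16.9 and 17.3 CPM in eggs. Its log2 change was 1.70 (standard error, SE, 0.28). CAH1186409.1 was at 739, 804 and 329 CPM in larvae and 236, 159 and 193 CPM in eggs, a log2 change of 1.67 (SE 0.30). These were the 2 members still called with library size alone. In both genes the larval and egg libraries did not overlap, and larva replicate 3 was the lowest larval library.

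Pupae and larvae differed in 16 members, all lower in pupae. Of all genes tested 40.7% were called, 20.3% as lower in pupae. This count moved when single libraries were left out. It was 8 without larva replicate 2, against 37.4% of all genes. It rose to 26 without female adult replicate 1 or 2, against 39.4% and 39.8%. It rose to 27 without egg replicate 2 or male adult replicate 2, against 42.4% and 39.7%. The libraries whose loss raised it lie outside this comparison, and why the count rose was not tested. With library size alone it was 7, against 40.3% of all genes in either direction, and with DESeq2 size factors 26, against 40.5%. DESeq2's Wald test called 27, against 42.4%, and edgeR with no minimum fold 65, against 50.8% in either direction. Of these 65, 64 (32.0% of the members) were lower in pupae, above the 24.8% of all genes called lower there. The median log2 change of the members was -0.38, and that of all genes 0.15. CAG9857793.1 was at 176, 175 and 149 CPM in pupae and 505, 550 and 289 CPM in larvae, a log2 change of -1.43 (SE 0.22). CAG9861062.1 was at 16.01, 19.2 and 17.997 CPM in pupae and 54.9, 49.5 and 27.8 CPM in larvae, a log2 change of -1.31 (SE 0.28). Both were also called with library size alone, CAG9857793.1 at a log2 change of -1.22.

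Female adults and pupae differed in 9 members, all lower in female adults. Of all genes tested 50.3% were called, 26.8% as lower in female adults. With no minimum fold edgeR called 63 members, against 61.9% in either direction. Of these 63, 62 (31.0% of the members) were lower in female adults, close to the 31.7% of all genes called lower there. Without female adult replicate 2 the count of 9 became 3, against 43.2% of all genes. With library size alone it was 0, against 54.2% of all genes in either direction. CAG9860984.1 was at 47.4, 42.7 and 41.5 CPM in female adults and 92.8, 110 and 110 CPM in pupae, a log2 change of -1.25 (SE 0.23). CAG9857323.1 was at 94.6, 76.3 and 77.9 CPM in female adults and 204, 197 and 189 CPM in pupae, a log2 change of -1.24 (SE 0.16). Their groups did not overlap, and with library size alone the changes were -0.73 and -0.71. Between male adults and pupae 0 members were called by edgeR and 0 by DESeq2's Wald test, against 35.6% of all genes with edgeR and 37.9% with DESeq2. With no minimum fold edgeR called 49 members, against 46.1%. An unadjusted p under 0.05 was found for 64 members, a count without a share of all genes to set it against. The count at an adjusted p under 0.05 and at least 2-fold was 1 without male adult replicate 1 or 2, against 32.5% and 33.8% of all genes.

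Between the sexes 0 members were called by edgeR, against 27.6% of all genes. DESeq2's Wald test called 3, all lower in female adults, against 31.0% of all genes, and edgeR with DESeq2 size factors called 3, against 27.6%. Of the members, 52 had an unadjusted p under 0.05 in edgeR with no minimum fold. No share of all genes is given at that unadjusted limit, so this count cannot be called low or high. The count at an adjusted p under 0.05 and at least 2-fold was 1 without female adult replicate 3 or male adult replicate 3, against 28.3% and 22.8% of all genes. With no minimum fold, edgeR called 28 members at an adjusted p under 0.05, all lower in female adults, against 36.9% of all genes in either direction and 18.6% lower in female adults. The direction of these small differences differed between scalings: the median log2 change of the members was -0.23 with TMM and 0.10 with library size alone. The median of all genes was -0.23 with TMM and 0.09 with library size alone.

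Among larvae, female adults and male adults, which share a column prefix, calls were made in both pairs with larvae. Female adults and larvae differed in 41 members (20.5%), all lower in female adults, close to the 20.3% of all genes called lower there and below the 36.8% called in either direction. The fitted change was above 0 in 0 of the 200 members. Male adults and larvae differed in 19 members (9.50%), all lower in male adults, close to the 10.4% of all genes called lower there and below the 21.0% in either direction. With no minimum fold the members' shares were above those of all genes. Between female adults and larvae 127 members (63.5%) were called, all lower in female adults. Of all genes 47.6% were called there, 24.5% as lower. Between male adults and larvae 71 members (35.5%) were called, all lower in male adults. Of all genes 29.0% were called there, 15.4% as lower. With DESeq2 size factors 69 members were called between female adults and larvae, against 36.8%, and 24 between male adults and larvae, against 21.3%. With library size alone 2 members were called between female adults and larvae, against 44.9% of all genes in either direction, and 1 between male adults and larvae, against 22.9%. In that scaling the change between female adults and larvae was above 0 in 99 members. Pupae and eggs differed in 6 members, all higher in pupae, against 34.7% of all genes called higher in pupae and 59.8% in either direction. With DESeq2 size factors 16 were called, all higher in pupae, against 59.3%, and with library size alone 1, lower in pupae, against 61.2%. Male adults and eggs differed in 2 members, both higher in male adults, against 35.7% of all genes called higher there and 62.4% in either direction. With DESeq2 size factors there were 11, all higher in male adults, against 60.8%, and with library size alone 1, against 63.6%. Female adults and eggs differed in 1 member, lower in female adults, against 17.7% of all genes called lower there and 40.1% in either direction. In that pair edgeR called 0 members with DESeq2 size factors, against 39.5%, and 0 with library size alone, against 38.6%. DESeq2's Wald test called 1, against 43.2%. With TMM, 52 members had an unadjusted p under 0.05, again without a share of all genes to set it against.

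**Figure D5:**
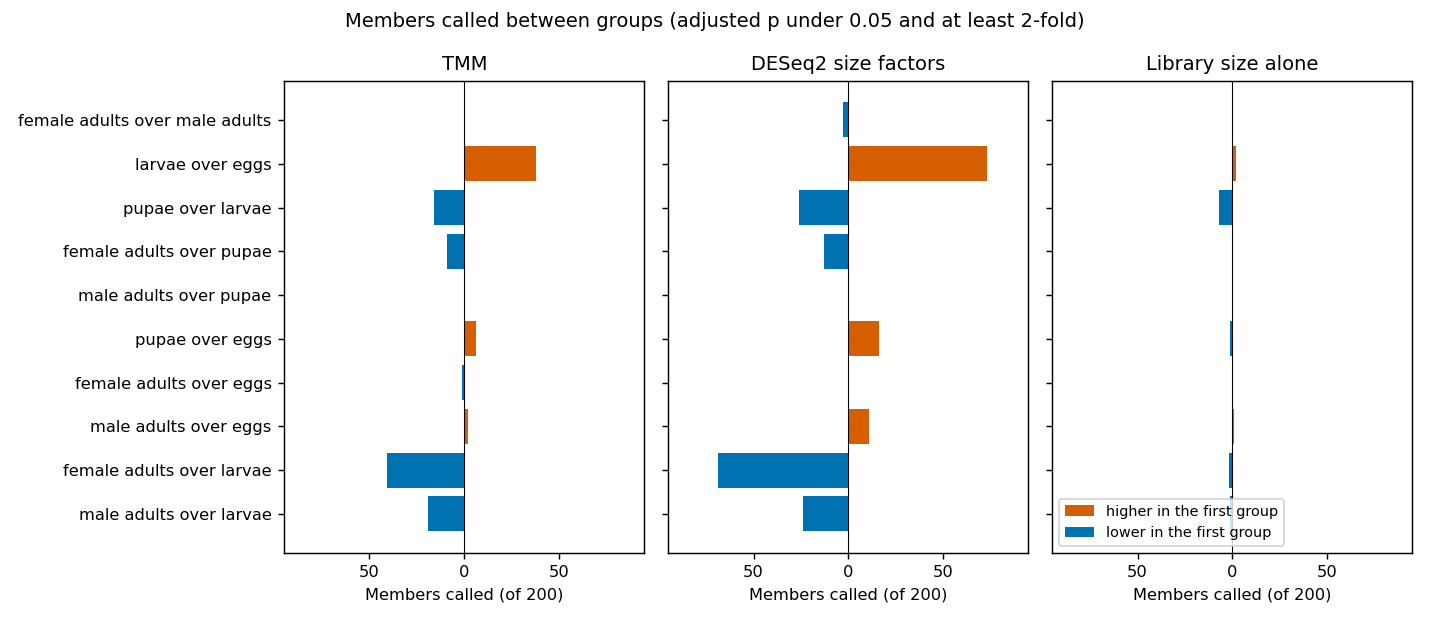
Members called at an adjusted p under 0.05 and at least 2-fold by edgeR in each of the 10 pairs of groups (y), under 3 scalings. Bars to the right of 0 count members higher in the first-named group and bars to the left members lower in it (x, of 200). Larvae over eggs holds 38 members with TMM, 73 with DESeq2 size factors and 2 with library size alone.

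Membership itself followed the scaling. When the rule was applied to group means of counts put on each gene's TPM scale, 147 of the 200 members were chosen again with library size alone, 56 with TMM and 25 with DESeq2 size factors. The lists chosen with TMM and with DESeq2 size factors shared 148 of their 200 genes. Leaving out single libraries had less effect, and 174 to 195 of the members were chosen again. A set of 25 members was chosen under all 4 scalings, and it includes the 8 members with the lowest SD named above. Their SD over the libraries ran from 0.141 to 0.527 with a median of 0.244, and 16 of them stayed within 2-fold over all 15 libraries. The widest range among them was 5.03-fold, and 3 were called over the 5 groups, against 91.9% of all genes tested. Evenness of TMM-scaled group means was part of their choice, so their low SD follows in part from it. Their mean level ran from 23.9 to 196 TPM. This set was formed after the values were seen and has no test.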

How the data were processed

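Whole-body RNA was isolated with TRIzol and made into Illumina TruSeq libraries, per the labels' protocols. Tools named in the submitters' processing notes are HISAT2, featureCounts and fastp; which versions, settings, strand and build applied is not given in the sources used. The authors deposited raw read counts per gene and library, and TPM averaged over the libraries of each group, which carry no spread. The deposited lists of stage- and sex-specific genes hold identifiers only.

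Groups and replicate numbers come from the sample titles, and each count column was matched by its library name. The members and lists were chosen with earlier results of these data known. Counts were filtered with filterByExpr (11440 of 11862 genes kept, all members among them), scaled by TMM and fitted with edgeR 4.0.16 in R 4.3.3 (robust quasi-likelihood, 5 groups, 15 libraries, p-values adjusted over all genes by Benjamini-Hochberg). Spread was computed in Python 3.11.15 from log2(CPM + 1). An SE is the log2 change divided by the square root of its F. Per-library TPM were rebuilt with relative gene lengths solved from counts and group means; they met the members' deposited means with a median difference of 0.000361 and at most 0.246 (log2). The fit and the spread measures were tested on simulated data.

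Named genes are the members with the lowest (8) and highest (4) SD, lowest (4) and highest (2) M, lowest (4) and highest (4) within-group SD, those at the rule's limit and at the ends of the TPM range, and, in each of 5 comparisons, the 2 called members that rose most and the 2 that fell most. Replicate columns all differed beyond sampling noise (chi-square over its degrees of freedom 86.6 or more). P-values cover only the spread between these samples, possibly technical. Same-numbered libraries deviated together in larvae and pupae (correlations of 0.526, 0.274 and 0.264 across genes, no label says why). Differently numbered larvae and pupae had correlations of -0.449 to 0.231. Same-numbered pairs were weakly positive in eggs and pupae (0.0922, 0.0307 and 0.0688) and in eggs and male adults (0.0356, 0.0816 and 0.0512). Any other 2 groups had a negative value among their 3 pairs. Over all groups the median was -0.0096 for same-numbered and 0.0202 for differently numbered libraries. Alternatives were DESeq2 1.42.0 and its size factors, library size alone, no filter, another pseudocount, a replicate block and leaving out each library. Gene names and sequences were not used here.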

Additional observations from a re-analysis of the deposited data

How the results depend on the processing

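Of 242 alternative values, 211 lay within 1.5 times the main value and 31 further off, and the causes of these were not tested. Most of the 242, 180 values, came from leaving out a single library, and 169 of these lay within 1.5 times. Values from other changes, such as scaling, test or threshold, lay further off more often. DESeq2 size factors in edgeR gave 73 members for larvae against eggs, 26 for pupae against larvae and 3 for female against male adults. DESeq2's own tests gave 74, 27 and 3, and 103 members in at least 1 pair of groups. Library size alone gave 2 for larvae against eggs, 7 for pupae against larvae, 0 for female adults against pupae, 13 in at least 1 pair and 96 over the 5 groups. With no minimum fold the counts were 28 for female against male adults, 100 for larvae against eggs, 65 for pupae against larvae, 63 for female adults against pupae, 49 for male adults against pupae and 172 in at least 1 pair. Members chosen again numbered 56 with TMM and, in an alternative chosen after the data were seen, 25 with DESeq2 size factors. The replicate block gave 39, 15 and 9 members for larvae against eggs, pupae against larvae and female adults against pupae, 0 in both other comparisons, 69 in at least 1 pair and 134 over the 5 groups, so no count moved by over 1.5 times. Of all genes the block called 54.2%, 39.6% and 48.9% in these 3 comparisons, 90.2% in at least 1 pair and 90.5% over the 5 groups. It called 34.3% for male adults against pupae and 26.0% for female against male adults. Leaving out single libraries gave 25 to 46 members for larvae against eggs, 8 to 27 for pupae against larvae, 3 to 12 for female adults against pupae, 0 to 1 for male adults against pupae and 0 to 1 for female against male adults. It gave 47 to 84 in at least 1 pair, 110 to 159 over the 5 groups and a median SD of 0.378 to 0.409. The shares of all genes, comparisons in the same order, were 53.1% to 59.4%, 36.9% to 46.9%, 43.2% to 52.9%, 31.2% to 39.2% and 19.2% to 31.0%. They were 89.1% to 92.1% in at least 1 pair and 88.6% to 92.8% over the 5 groups. With 3 libraries a group, small differences cannot be told from the spread between replicates. The lowest member count was 45, where counting error adds to the spread.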

Other observations

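These values were picked out once the data had been seen. Of the 19900 pairs of members, CAG9854810.1 and CAG9855236.1 kept the most even ratio. The SD of their log2 CPM ratio over the 15 libraries was 0.122, against a median of 0.456 over all pairs. The ratio of CAG9854810.1 to CAG9855236.1 was 1.87 to 2.53, with the lowest and the highest value both in female libraries. Both genes nevertheless varied. CAG9854810.1 was at 110, 92.2 and 119 CPM in larvae and at 68.3, 69.1 and 58.9 CPM in eggs, and CAG9855236.1 at 48.5, 43.0 and 55.1 CPM in larvae and at 30.8, 33.0 and 28.5 CPM in eggs. In both genes all larval libraries lay above all egg libraries in TMM-scaled counts.

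The spread between replicates was similar at each level of expression. Members with a mean under 50 TPM numbered 82 and had a median within-group SD of 0.229. Members from 50 to 100 TPM numbered 81 with a median of 0.214, and those above 100 TPM numbered 37 with a median of 0.238. The corresponding medians for all genes in these ranges were 0.333, 0.319 and 0.342. Members made up 2.23%, 4.02% and 4.33% of the genes in these ranges.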
